A study of Homo sapiens with 6 samples.

Results

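Antiviral restriction effectors are the proteins that act directly on a virus inside or on an infected cell. The 10 genes described here were named by their function, with earlier results of these data known, as MX1, MX2, RSAD2, CMPK2, BST2, IFITM1, IFITM2, IFITM3, ISG20 and SAMHD1. All 10 were found among the 16760 genes of the table, and all 10 entered the test. RNA was sequenced from H1975, a human lung adenocarcinoma cell line, in 3 libraries of cells labelled YTHDC2 knockout and 3 libraries of cells labelled WT, to find the mRNAs that change when YTHDC2, an RNA helicase that reads the m6A mark on RNA, is lost. The knockout was made with a CRISPR plasmid from the group's earlier studies. No agent, virus or interferon treatment is named for either genotype, and whether the knockout cells are 1 clone is not given in the sources used here. Neither are separate cultures stated for the replicates, so p-values measure the spread between these libraries, which may be technical.

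In many cell types these genes are switched on together by type I interferon, through a transcription factor complex that contains IRF9 and binds the interferon-stimulated response element (ISRE) in their promoters. Their products stop viruses at different steps. The IFITM proteins hinder fusion of the viral with the cellular membrane, the MX proteins and SAMHD1 act before or during copying of the viral genome, RSAD2 and CMPK2 act on nucleotides, ISG20 degrades RNA, and BST2 holds budding virions at the cell surface.

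The promoters of several of these genes show the letters of the ISRE directly, which is why they are given here. RefSeq windows of GRCh38.p14, from 250 bases before to 50 bases after a start of transcription, were found for 8 of the 10 genes, with several windows for genes with several starts. MX2 and IFITM2 had no entry. The letters GAAANNGAAA, the ISRE core, were searched on both strands, together with the same repeat at a spacing of 1 base, GAAANGAAA, which was added after the sequences were read. In the windows that follow, printed 5′ to 3′ on the strand of the gene, capitals mark matches to either motif.
RSAD2 window 1, chr2:6865635-6865934, plus strand: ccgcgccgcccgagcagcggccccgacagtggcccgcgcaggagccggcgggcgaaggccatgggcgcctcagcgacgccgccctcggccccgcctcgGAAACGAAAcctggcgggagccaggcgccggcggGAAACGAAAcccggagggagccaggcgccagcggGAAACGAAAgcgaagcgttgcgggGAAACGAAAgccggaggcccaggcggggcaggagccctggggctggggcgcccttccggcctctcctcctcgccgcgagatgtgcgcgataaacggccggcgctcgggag
RSAD2 window 2, chr2:6877527-6877826, plus strand: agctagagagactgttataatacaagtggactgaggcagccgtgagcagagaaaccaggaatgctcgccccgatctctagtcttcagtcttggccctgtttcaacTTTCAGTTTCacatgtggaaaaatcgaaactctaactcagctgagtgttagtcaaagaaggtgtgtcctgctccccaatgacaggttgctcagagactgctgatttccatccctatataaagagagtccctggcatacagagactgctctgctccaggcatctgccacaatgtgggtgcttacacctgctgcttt
BST2, chr19:17405581-17405880, minus strand: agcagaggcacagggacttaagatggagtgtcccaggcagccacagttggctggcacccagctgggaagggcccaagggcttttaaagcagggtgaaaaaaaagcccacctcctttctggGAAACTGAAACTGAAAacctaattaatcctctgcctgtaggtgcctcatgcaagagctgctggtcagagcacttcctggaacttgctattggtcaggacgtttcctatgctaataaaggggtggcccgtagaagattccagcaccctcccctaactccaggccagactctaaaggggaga
IFITM1, chr11:313790-314089, plus strand: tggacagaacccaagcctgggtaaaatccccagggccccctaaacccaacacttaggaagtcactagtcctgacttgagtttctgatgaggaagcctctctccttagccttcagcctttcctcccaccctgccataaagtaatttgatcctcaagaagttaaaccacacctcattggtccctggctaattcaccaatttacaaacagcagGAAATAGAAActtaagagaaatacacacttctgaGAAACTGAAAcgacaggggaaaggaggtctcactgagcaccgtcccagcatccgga
IFITM3, chr11:320811-321110, minus strand: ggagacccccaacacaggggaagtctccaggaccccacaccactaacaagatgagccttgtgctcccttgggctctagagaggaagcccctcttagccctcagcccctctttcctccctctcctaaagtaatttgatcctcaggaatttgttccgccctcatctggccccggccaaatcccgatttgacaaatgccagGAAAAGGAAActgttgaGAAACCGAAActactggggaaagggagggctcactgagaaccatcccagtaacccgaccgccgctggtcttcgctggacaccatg
ISG20, chr15:88638766-88639065, plus strand: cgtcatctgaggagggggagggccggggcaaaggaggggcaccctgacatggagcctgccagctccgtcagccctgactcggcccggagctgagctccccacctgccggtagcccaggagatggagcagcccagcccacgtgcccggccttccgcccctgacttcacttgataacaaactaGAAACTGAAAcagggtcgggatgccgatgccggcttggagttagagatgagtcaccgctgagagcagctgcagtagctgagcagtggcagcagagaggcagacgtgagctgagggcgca
MX1 window 1, chr21:41420308-41420607, plus strand: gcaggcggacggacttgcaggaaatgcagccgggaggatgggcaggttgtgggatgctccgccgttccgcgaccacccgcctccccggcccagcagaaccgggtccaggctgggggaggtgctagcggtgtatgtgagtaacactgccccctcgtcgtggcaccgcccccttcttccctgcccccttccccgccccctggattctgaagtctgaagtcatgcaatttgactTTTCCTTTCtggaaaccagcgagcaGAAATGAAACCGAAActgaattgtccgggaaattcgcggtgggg

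The plot of motif matches sets out all windows by distance, with the first transcribed base as 0. The ISRE core was present in at least 1 window of 6 of the 8 genes, RSAD2, BST2, IFITM1, IFITM3, ISG20 and MX1. Over all 35116 windows of the table of promoters, 3.57% hold it, and of the 13220 genes of the expression table with a window, 4.08% do. BST2 held a pair of cores that overlap, beginning at -130 and -124, and IFITM3 a pair at -52 and -35. IFITM1 held cores at -40 and -6, RSAD2 window 2 a core at -145, ISG20 at -69, and MX1 at 11 in window 1 and at -196 in window 3. Windows of CMPK2 and SAMHD1 held no core. RSAD2 window 1 held 4 repeats with the 1-base spacing, of which the 2 nearest its start lie within the 165 bases that it shares with CMPK2 window 2 on the opposite strand, so CMPK2 window 2 shows the same 2 repeats. That repeat is in 3.12% of all windows. The letters TTCNNNGAA, searched as the GAS element of interferon signalling and present in 7.66% of all windows, matched in BST2, IFITM1 and MX1 window 3, where at least 1 match overlaps an ISRE core. A match describes letters in a window and is not evidence of binding.

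**Figure D1:**
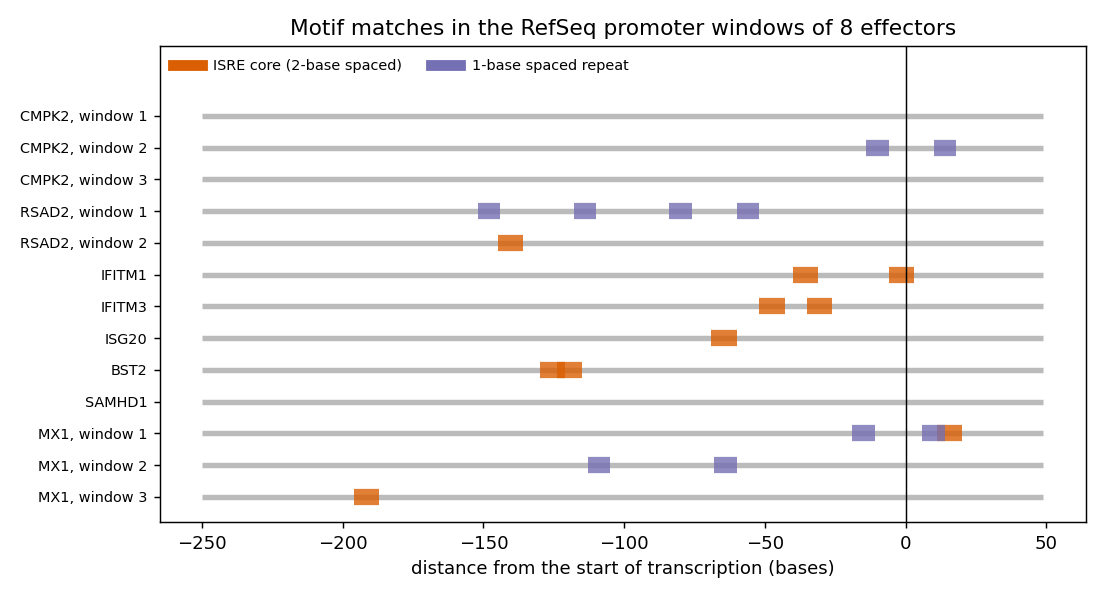
Motif matches in the promoter windows of 8 genes. The x axis is the distance in bases from the start of transcription, each grey line is 1 RefSeq window, orange blocks are ISRE cores and purple blocks are repeats with a 1-base spacing. Matches lie between -152 and 20, except for the core at -196 in MX1 window 3.

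Of the 10 effectors, 7 were lower in YTHDC2 knockout cells and none was higher. The 7 were MX2, RSAD2, CMPK2, BST2, IFITM1, IFITM3 and SAMHD1, at an adjusted p below 0.05 and an absolute log2 fold change above 1 with limma on log2(FPKM + 0.1). FPKM are fragments scaled to the length of the gene and the depth of the library. The 0.1 added before the logarithm shrinks the fold change of genes at that level or below. MX2 and RSAD2, at 0 FPKM in every knockout library, passed the filter of above 0 FPKM in at least 3 of 6 libraries through WT alone. Once tested, their direction was fixed as lower, in the count of 7 and in the median given below. Without the filter the same 7 were called. Over all 15441 genes tested, 1.99% were called lower (307 genes) and 0.732% higher (113 genes), and these totals were 236 and 172 after median scaling and 206 and 195 after quantile normalization, with 7 effectors called lower in each. No effector rose at an unadjusted limma p below 0.05, and limma voom on recovered fragments called the same 7 lower and none higher. Every knockout library was below every WT library in FPKM for 8 of the 10, against 33.1% of all genes tested. Among the 8, MX1 was apart through library depth alone, as knockout replicates 2 and 3 and WT replicate 3 each held 1 fragment of it. The median log2 fold change was -1.67 over the 10 effectors and -0.09 over all genes. MX2, RSAD2 and CMPK2 are among the genes that the study picked from its RNA-seq of these cells and followed up with siRNA and qPCR. Their direction here is therefore not independent evidence. By qPCR in H1975 cells, the study reports that YTHDC2 knockout lowered these genes and that YTHDC2 overexpression raised them. In its RNA-seq text the study lists these genes among the most increased after knockout, and elsewhere it calls genes of that list decreased. Directions given here follow the labels, under which YTHDC2 mRNA was lower in each library labelled knockout than in each labelled WT. In bulk RNA, fewer cells that express a gene and less RNA per cell cannot be told apart.

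**Figure D2:**
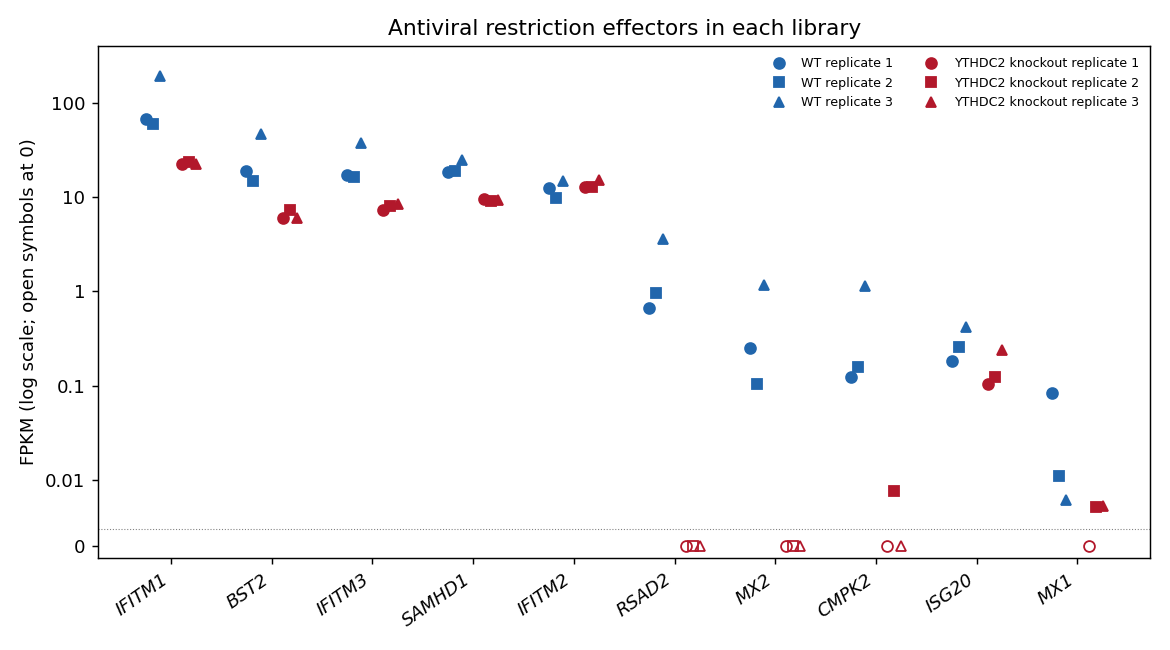
FPKM of the 10 effectors in each library, on a log axis with open symbols below the dotted line for a value of 0. Blue symbols are WT and red symbols knockout libraries, with 1 symbol shape per replicate number, and genes run from the highest to the lowest WT mean. Knockout libraries lie below WT libraries for 8 genes and overlap with them for IFITM2 and ISG20. For MX1 they lie below through depth alone, at 1 fragment in each of knockout replicates 2 and 3 and WT replicate 3. WT replicate 3 is the highest WT library for 9 of the 10.

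WT replicate 3 stood apart from the other WT libraries. YTHDC2 mRNA measured 7.82, 8.92 and 8.14 FPKM in the knockout libraries, and 13.0, 17.1 and 201 FPKM in the WT libraries. The targeted mRNA was thus still detected in the knockout libraries, and in WT replicate 3 it was 13.4 times the mean of the other WT libraries. The log2 fold change of YTHDC2 was -2.09 (SE, standard error, 1.17, adjusted p = 0.228 with limma), and the WT mean was 9.30 times the knockout mean, or 1.81 times without WT replicate 3. Libraries held 32323119 to 34027079 recovered fragments in knockout and 27363301 to 30515208 in WT. Of 11 lung epithelial markers in the table, 6 averaged below 1 FPKM, and their summed level was 174 to 182 FPKM in knockout and 146 to 159 FPKM in WT, with KRT8 and KRT18 as the highest. KRT8 and KRT18 were higher in every knockout than in every WT library, at log2 fold changes of 0.24 and 0.27 (limma adjusted p = 0.00711 and 0.00175), short of a call. EPCAM, a surface marker of epithelia, averaged 0.246 FPKM in knockout and 0.818 FPKM in WT, and KRT19, a keratin, 0.0142 and 1.02 FPKM, both called lower by limma. Summed leukocyte markers, 8 genes of which 5 averaged below 1 FPKM, ran from 2.87 to 3.77 FPKM in knockout and from 4.71 to 5.30 FPKM in WT. ITGAM, an integrin of myeloid cells, was called lower by limma on 1 fragment in knockout and 49 in WT, while PTPRC, the marker shared by leukocytes, averaged 0.00154 FPKM in knockout and 0 FPKM in WT. Of 7 fibroblast markers 6 averaged below 1 FPKM (summed 6.54 to 6.79 FPKM in knockout, 7.43 to 8.66 FPKM in WT), as did all 5 endothelial markers (0.0758 to 0.111 and 0.0737 to 0.131 FPKM). The collagen gene COL1A2 was called lower, on 101 fragments in knockout and 595 in WT (adjusted p = 2.72e-04 with limma). Its partner COL1A1, which holds most of the summed fibroblast level, averaged 6.02 FPKM in knockout and 6.21 FPKM in WT and was not called. The part of these markers in the results was not tested.

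The dynamin-like GTPases MX1 and MX2 lie side by side on chromosome 21 in GENCODE 29 on GRCh38, MX2 at chr21:41361943-41409390 and MX1 at chr21:41420304-41459214, both on the plus strand and 10913 bases apart. MX2, whose product blocks nuclear entry of lentiviral genomes, measured 0 FPKM in all 3 knockout libraries and 0.253, 0.104 and 1.17 FPKM in WT replicates 1, 2 and 3. These are 0 fragments in knockout and 29, 12 and 121 fragments in WT. The WT libraries spread widely. Each held MX2 fragments, which the filter requires of a gene at 0 in every knockout library. MX2 was set against a floor of 3 fragments, chosen for a count of 0 over the 3 knockout libraries. By this floor MX2 was at least 60.9-fold lower in knockout, and the bound was 22.4-fold without WT replicate 3 and 40.1-fold without knockout replicate 1. On the log2 scale the fold change was -2.17 (SE 0.55, adjusted p = 0.0115 with limma), and MX2 was not called with a pseudocount of 1 (limma adjusted p = 0.0777).

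MX1, whose product traps viral nucleocapsids in the cytoplasm, was near absent in both genotypes. It measured 0, 0.00514 and 0.00527 FPKM in knockout, and 0.0843, 0.0112 and 0.00623 FPKM in WT. In fragments this is 0, 1 and 1 against 15, 2 and 1. MX1 is thus the exception among the 10, highest in WT replicate 1 and lowest of the WT libraries in replicate 3. The ratio of fragments per depth, knockout to WT, was 0.0985 (95% Clopper-Pearson interval 0.0111 to 0.411), and without WT replicate 1 it was 0.388 (0.0324 to 3.38). Without knockout replicate 1 the ratio was 0.150 (0.0168 to 0.625). The log2 fold change was -0.33 (SE 0.24, adjusted p = 0.316 with limma), so MX1 was not called. The neighbours differed within WT libraries. MX2 was 3.00 times MX1 in FPKM in WT replicate 1, 9.32 times in replicate 2 and 188 times in replicate 3.

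RSAD2 and CMPK2 are a divergent pair on chromosome 2, RSAD2 at chr2:6865806-6898239 on the plus strand and CMPK2 at chr2:6840570-6866635 on the minus strand, and their annotated spans overlap by 830 bases at the 5′ ends. RSAD2 encodes viperin, which makes a chain-terminating nucleotide from CTP, and CMPK2 encodes a mitochondrial kinase that supplies nucleotides of this kind. RSAD2 measured 0 FPKM in each knockout library and 0.661, 0.955 and 3.64 FPKM in WT replicates 1, 2 and 3, or 75, 109 and 372 fragments. Its fitted log2 fold change, which the pseudocount sets because knockout is at 0, was -3.85 (SE 0.49, adjusted p = 4.48e-04 with limma). RSAD2 was at least 209-fold lower in knockout by the floor of 3 fragments. Leaving out WT replicate 3 brought this bound to 100.3-fold, and leaving out knockout replicate 1 to 138-fold. RSAD2 was called lower in each of the 16 alternatives in which it was tested, with a log2 fold change of -1.30 at a pseudocount of 1 and -7.06 at a pseudocount of 0.01. As knockout is at 0 in every library, its direction was fixed in all of them. Leaving out any 1 knockout library left the fitted value at -3.85.

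CMPK2 showed a single fragment in knockout. It measured 0, 0.00763 and 0 FPKM there, and 0.125, 0.157 and 1.14 FPKM in WT, where it had 15, 19 and 123 fragments. The ratio of fragments per depth was 0.00565 (95% Clopper-Pearson interval 1.42e-04 to 0.0319), 0.0180 without WT replicate 3 (4.42e-04 to 0.107), and 0.00858 without knockout replicate 1. Without knockout replicate 2, the library with the fragment, CMPK2 was at least 39.4-fold lower by the floor. CMPK2 had a fitted log2 fold change of -2.02 (SE 0.55, adjusted p = 0.0167 with limma). This call was lost without knockout replicate 3 (limma adjusted p = 0.0512), without trend and robust moderation (limma adjusted p = 0.0535) and with a pseudocount of 1 (limma adjusted p = 0.101). Strand was not stated for the counting, so fragments from the shared 830 bases cannot be assigned to either gene. Within WT libraries RSAD2 was 5.29, 6.07 and 3.20 times CMPK2 in FPKM, a narrower range than that of the MX pair. No such ratio can be read in knockout, where both genes were at or near 0.

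**Figure D3:**
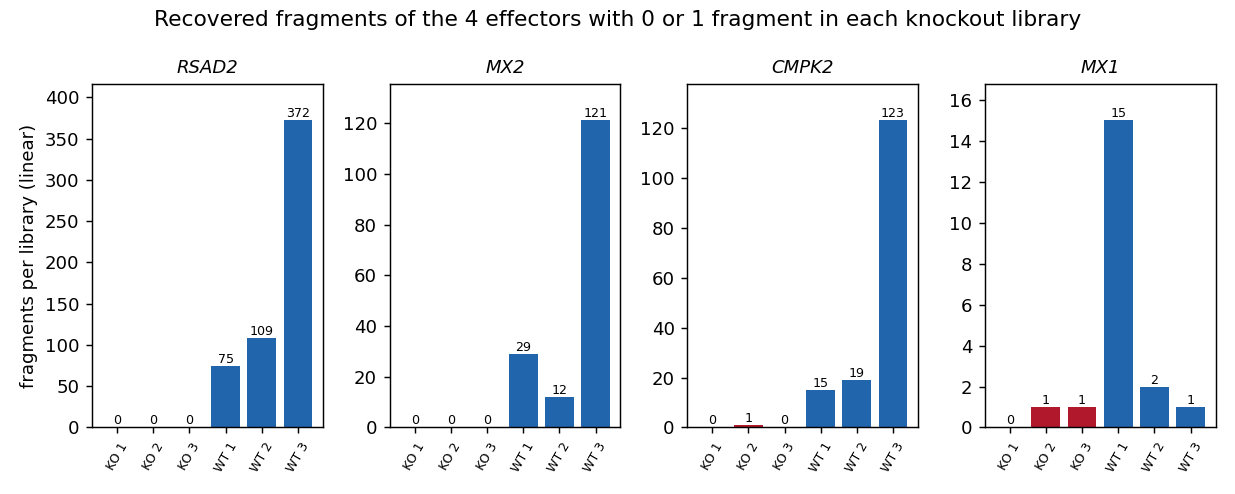
Recovered fragments of RSAD2, MX2, CMPK2 and MX1 in each library, on linear axes that differ between panels. Red bars are knockout and blue bars WT libraries. Each knockout library holds 0 or 1 fragment of each gene, RSAD2, MX2 and CMPK2 are highest in WT replicate 3 and MX1 is highest in WT replicate 1.

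BST2, or tetherin, which anchors enveloped virions to the plasma membrane, lies at chr19:17402939-17405648 on the minus strand. It measured 6.02, 7.25 and 5.93 FPKM in knockout and 18.9, 14.8 and 47.2 FPKM in WT, and the genotypes did not overlap. Its mean was 6.40 ± 0.740 FPKM in knockout against 27.0 ± 17.6 FPKM in WT (SD, n = 3), a 4.21-fold difference that was 2.63-fold without WT replicate 3. For BST2 the log2 fold change was -1.87 (SE 0.39, adjusted p = 0.00765 with limma). BST2 was called in each fit that left out a library, with limma adjusted p between 4.82e-04 and 0.0499. With the replicate number as a block it was not called (limma adjusted p = 0.109), at the same log2 fold change. Its nearest neighbour in the table, MVB12A, lies 74 bases away. MVB12A was higher in every knockout than in every WT library, at a log2 fold change of 0.60 (adjusted p = 1.96e-04 with limma), short of a call. CCDC194, 8781 bases away on the other side, was lower in knockout at 0.0665 ± 0.0958 against 0.434 ± 0.226 FPKM (SD, n = 3). The log2 fold change of CCDC194 was -1.74 (SE 0.41, adjusted p = 0.00850 with limma).

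The IFITM genes on chromosome 11 diverged. IFITM1, which restricts entry mainly at the cell surface, and IFITM3, which acts in endosomes, were lower in knockout, and IFITM2, a close relative of IFITM3, was not. IFITM1 (chr11:313506-315272, plus strand) measured 22.2, 23.7 and 22.3 FPKM in knockout and 67.9, 58.9 and 193 FPKM in WT. It was the highest of the 10 effectors in either genotype, with no overlap between genotypes. Its log2 fold change was -2.01 (SE 0.45, adjusted p = 0.0155 with limma). The call of IFITM1 was lost when any 1 knockout library was left out (limma adjusted p = 0.0520 to 0.0711), whereas without WT replicate 3 it passed at a log2 fold change of -1.47 (adjusted p = 5.95e-05).

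IFITM3 (chr11:319669-327537, minus strand), 4396 bases from IFITM1, measured 7.27, 8.01 and 8.46 FPKM in knockout and 17.2, 16.4 and 37.1 FPKM in WT. All knockout values were below all WT values, and the fold between means was 2.98, or 2.12 without WT replicate 3. Its log2 fold change was -1.46 (SE 0.28, adjusted p = 0.00374 with limma), and it was called lower in all 17 alternatives. IFITM2 (chr11:307631-315272, plus strand) measured 12.8, 12.7 and 15.3 FPKM in knockout and 12.5, 9.88 and 14.7 FPKM in WT. These ranges overlap, and the log2 fold change was 0.15 (SE 0.14, adjusted p = 0.416 with limma). Since the annotated span of IFITM2 contains IFITM1 on the same strand and the IFITM genes are similar in sequence, the split of fragments between them is uncertain.

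The make-up of the IFITM mRNA pool therefore differed between genotypes. IFITM1 was 48.4% to 53.3% of the summed FPKM of the 3 genes in knockout and 69.1% to 78.8% in WT. IFITM2 was 28.6% to 33.2% in knockout and 6.03% to 12.8% in WT, and IFITM3 was 17.2% to 18.4% and 15.2% to 19.2%. The shares of IFITM1 and IFITM2 did not overlap between genotypes, while those of IFITM3 did. The log2 ratio of IFITM1 to IFITM2 per library differed by -2.16 between knockout and WT, that of IFITM2 to IFITM3 by 1.61 and that of IFITM1 to IFITM3 by -0.55. None of these ratios overlapped between genotypes (exact two-sided permutation test, p = 0.1 each and 0.1 after Benjamini-Hochberg adjustment over 5 pairs, the lowest that this design can reach). The other pairs of the 5, MX1 to MX2 and RSAD2 to CMPK2, differed by 1.85 and -1.83 with the same exact p, but the pseudocount sets these values in knockout.

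**Figure D4:**
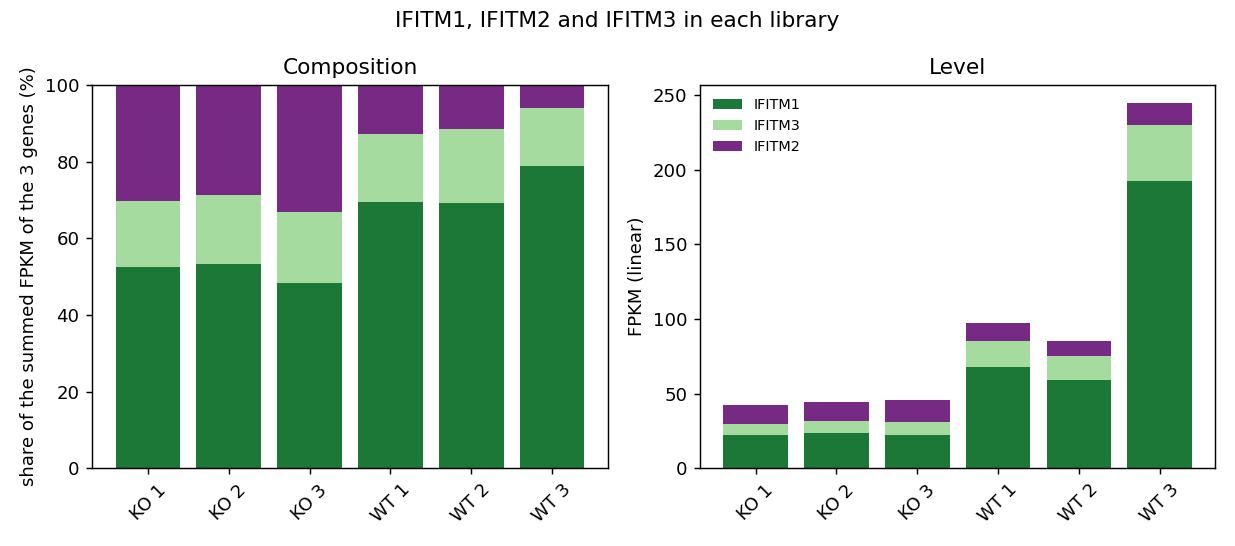
IFITM1, IFITM2 and IFITM3 in each library. The left panel gives the share of each gene in the summed FPKM of the 3 genes in percent, and the right panel their FPKM stacked on a linear axis, for knockout (KO) and WT replicates 1 to 3. IFITM2 takes 28.6% to 33.2% in knockout and 6.03% to 12.8% in WT, and the summed level is 42.3 to 46.0 FPKM in knockout and 85.1 to 244 FPKM in WT.

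SAMHD1 and ISG20 are the enzymes of the group that break down nucleotides or RNA. SAMHD1 (chr20:36889773-36951901, minus strand), which hydrolyses dNTPs and so starves reverse transcription, measured 9.44, 9.18 and 9.37 FPKM in knockout and 18.4, 18.9 and 24.9 FPKM in WT. Means were 9.33 ± 0.135 and 20.7 ± 3.62 FPKM (SD, n = 3), and the libraries of the genotypes did not overlap. The log2 fold change of -1.13 (SE 0.11, adjusted p = 1.13e-04 with limma) lay close to the threshold of 1. It fell short of that threshold without WT replicate 3 (log2 fold change -0.99, limma adjusted p = 1.45e-04) and after correction for GC content (-0.98, limma adjusted p = 1.08e-04). TLDC2 overlaps SAMHD1 on the opposite strand.

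ISG20 (chr15:88636153-88656483, plus strand), an exonuclease that degrades RNA, was expressed at a low level in both genotypes. It measured 0.105, 0.124 and 0.237 FPKM in knockout and 0.182, 0.257 and 0.417 FPKM in WT. Knockout replicate 3 lay above WT replicate 1, so the genotypes overlapped. Its log2 fold change was -0.58 (SE 0.28, adjusted p = 0.124 with limma), and on 86 and 139 fragments a change was not resolved.

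**Figure D5:**
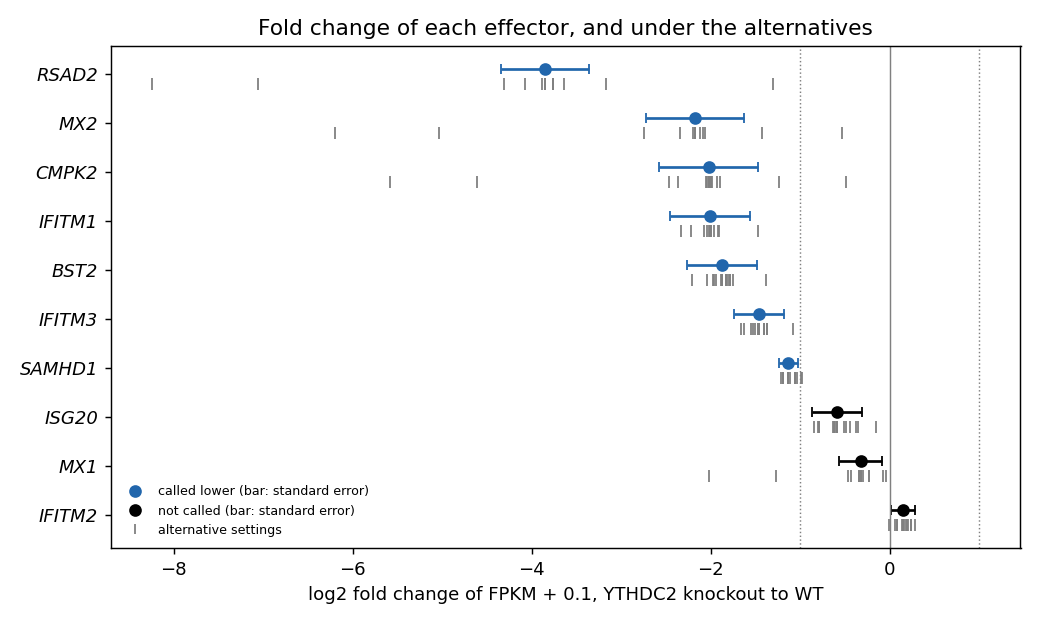
Log2 fold change of each effector, knockout to WT, on the scale of FPKM + 0.1. Points are the fitted values with their standard error, blue where called lower and black where not, and grey ticks are the values under the alternative settings. RSAD2 is at -3.85 with the pseudocount of 0.1, SAMHD1 lies closest to the dotted threshold at -1, and the values of MX2, CMPK2 and RSAD2 spread with the pseudocount and with limma voom.

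The order of the effectors by level also differed between genotypes. In WT, mean FPKM fell from IFITM1 at 106 through BST2 at 27.0, IFITM3 at 23.6, SAMHD1 at 20.7 and IFITM2 at 12.4 to RSAD2 at 1.75, MX2 at 0.509, CMPK2 at 0.473, ISG20 at 0.285 and MX1 at 0.0339. Neighbours from BST2 to SAMHD1 overlapped in their libraries, as did those from RSAD2 to ISG20. In knockout the order was IFITM1 at 22.7, IFITM2 at 13.6, SAMHD1 at 9.33, IFITM3 at 7.91 and BST2 at 6.40 FPKM, each apart from the next, and then ISG20 at 0.155 FPKM. MX1, CMPK2, MX2 and RSAD2 were at or near 0 in knockout and could not be ordered. By mean FPKM, BST2 ranked 2 in WT and 5 in knockout, while IFITM2 ranked 5 in WT and 2 in knockout. The WT rank of BST2 did not hold in WT replicate 2, where BST2 at 14.8 FPKM lay below SAMHD1 at 18.9 and IFITM3 at 16.4 FPKM.

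The height of WT replicate 3 varied among the effectors. All 7 called effectors were highest in this library, and 9 of all 10, against 35.8% of the genes tested. Its value was 8.05 times the mean of the other WT libraries for CMPK2, 6.55 times for MX2 and 4.50 times for RSAD2. It was 3.04 times for IFITM1, 2.80 for BST2, 2.21 for IFITM3 and 1.90 for ISG20, and 1.34 for SAMHD1 and 1.32 for IFITM2. The effectors at or near 0 in knockout, apart from MX1, thus also differed most among the WT libraries. Without WT replicate 3, limma called 6 of the effectors lower, all but SAMHD1 of the 7.

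Genes related to the effectors by sequence or fold were mostly not called, as were most of all genes tested (1.99% called lower, 0.732% higher). Of 21 such genes tested, among them the dynamins, other radical SAM enzymes, CMPK1 and ISG20L2, none was called lower by limma or limma voom. At an unadjusted limma p below 0.05, 8 were lower and 5 higher. The median log2 fold change of the 21 was -0.02. Called higher was 1 of the 21, IFITM10, a distant member of the IFITM family. It measured 0.787, 0.541 and 0.654 FPKM in knockout and 0.459, 0.237 and 0.0783 FPKM in WT. The log2 fold change of IFITM10 was 1.23 (SE 0.37, adjusted p = 0.0247 with limma), opposite in sign to that of IFITM1 and IFITM3. Its knockout mean was 2.56 times the WT mean, or 1.90 times without WT replicate 3, the library with 8 fragments of it.

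Genes that work beside the effectors in the cell did not pass the thresholds, which few genes of the whole table did. Over all genes tested, 1.99% were called lower and 0.732% higher, so lists this short can hold no call without differing from other genes. Of 19 genes of nucleotide supply, the substrates of SAMHD1 and CMPK2, none was called in either direction by limma or limma voom, with 8 lower and 3 higher at an unadjusted limma p below 0.05. Of 16 genes of endosomal trafficking, where IFITM3 and BST2 travel, none was called by limma or limma voom either, with 6 lower and 3 higher at that unadjusted p. At a limma adjusted p below 0.05 alone, 7 nucleotide genes were lower and 2 higher, and 3 trafficking genes were lower and 2 higher. Over all 15441 genes tested, that setting gave 4044 lower and 2563 higher. Around the effector loci, limma called 1 of 35 tested neighbouring genes lower, CCDC194 beside BST2, and none higher. Limma voom called 1 lower and 1 higher. At an unadjusted limma p below 0.05, 9 neighbours were lower and 11 higher, with the same counts at a limma adjusted p below 0.05 alone. The median log2 fold change of the neighbours was 0.07.

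Other antiviral effectors and the carriers of the interferon signal were lower in part. Of 41 other antiviral genes tested, limma called 12 lower and limma voom 14, neither called any higher, the median log2 fold change was -0.55, and 2 were higher at an unadjusted limma p below 0.05. Without WT replicate 3 the 12 became 7. GBP1, an interferon-induced GTPase that coats pathogens, was at 0.0141 ± 0.00647 FPKM in knockout against 0.551 ± 0.240 FPKM in WT (SD, n = 3). EIF2AK2, the kinase PKR that stops translation on double-stranded RNA, was at 6.11 ± 0.188 and 20.4 ± 7.54 FPKM. SAMD9 and IFI6 had log2 fold changes of -2.85 (limma adjusted p = 4.30e-04) and -3.57 (limma adjusted p = 5.08e-04). Of 12 signal carriers, 2 were lower, among them IRF9 (log2 fold change -2.65, adjusted p = 1.90e-05 with limma), none was higher with limma or limma voom, and 2 were higher at an unadjusted limma p below 0.05. These lists, like the effectors, were drawn up with earlier results of these data known.

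The genes whose profile over the 6 libraries lay closest to the median profile of the 10 effectors included EIF2AK2, IFIT5, PLSCR1 and REC8, at Euclidean distances of 0.560, 0.654, 0.665 and 0.677 in centred log2(FPKM + 0.1). IFIT5, for example, measured 3.44, 3.74 and 3.47 FPKM in knockout and 10.1, 12.6 and 19.3 FPKM in WT. Each of these 4 was lower in every knockout than in every WT library and highest in WT replicate 3, which is the shape the measure selects for.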

How the data were processed

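RNA-seq of 3 YTHDC2 knockout and 3 WT libraries of H1975 cells was analysed, grouped by the genotype in the labels. The authors deposited 1 table of FPKM for 16760 genes. GRCh38.p13 is named in the submitters' processing notes, while the sources used here do not give the aligner, the counter, its strand setting or a filter. FPKM of a gene were whole multiples of a step per library, from which whole fragments and gene lengths were recovered for all 16760 genes (tolerances of 0.02 fragments and 0.1 bases). Intervals (95%, Clopper-Pearson) and the floor of 3 fragments cover counting error only, and the floor that of the knockout count alone.

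Genes above 0 FPKM in at least 3 of 6 libraries (15441) were tested in R 4.3.3 by limma 3.58.1, using a mean-variance trend, robust moderation and Benjamini-Hochberg adjustment, on log2(FPKM + 0.1). The thresholds for a call, an adjusted p below 0.05 and a log2 fold change beyond 1 in either direction, follow the paper's methods. Tested on simulated data with 50 genes at each log2 fold change among 15783, the fit called 50 genes at -3, 49 at -1.5, 50 at 1.5, 50 at 3 and 3 of 15583 unchanged genes. The changed genes averaged at least 50 fragments before the change, all genes shared 1 small dispersion, and no library was set apart. The simulation thus does not cover genes at or near 0 in knockout, or a library that differs as WT replicate 3 does. Single values per library were compared by exact two-sided permutation tests.

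The effectors and the 9 other gene lists were chosen with earlier results of these data known. Named with values were the effectors, YTHDC2, up to 4 called genes of each list and of the 3 nearest neighbours on each side with the smallest adjusted p, and the 5 nearest profiles with a mean of at least 1 FPKM. KRT8, KRT18, COL1A1, PTPRC and MVB12A were named after their values were seen. Gene positions are from GENCODE 29, to which 99.1% of symbols matched. Alternatives were pseudocounts of 0.01 and 1, no filter, a mean of at least 1 FPKM, FPKM rescaled to a common total, median scaling, quantile normalization, a replicate block, limma without trend and robust moderation, each library left out in turn, limma voom on recovered fragments, a lowess correction for GC content, and an adjusted p alone. Tables and exact tests were made in Python 3.11.15 with scipy 1.17.1, pandas 2.3.3 and numpy 2.4.6. The values of 1 gene within the rule for named genes are not reported here, and other experiments of the study were not analysed here.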

Additional observations from a re-analysis of the deposited data

How the results depend on the processing

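The 7 effectors called lower became 4 with a filter at a mean of 1 FPKM, which removes MX2, RSAD2 and CMPK2 from the test, and none was called higher under any alternative. The labels do not say whether the replicate numbers pair the samples. Correlations of same-numbered deviations were 0.212, 0.125 and -0.0581, and with no comparison to different-numbered libraries they cannot settle it. With a replicate block, 5 effectors were called, without BST2 (limma adjusted p = 0.109) and IFITM1 (limma adjusted p = 0.0974), whose log2 fold changes were as without the block. Over all genes, lower and higher calls were 505 and 184 with a pseudocount of 0.01, 69 and 29 with a pseudocount of 1, and 4044 and 2563 at an adjusted p alone, which also gave 21 lower among the other antiviral genes and 5 among the relatives. The filter at 1 FPKM left 126 lower genes. Higher calls were 172 with median scaling, 195 with quantile normalization, 227 with limma voom and 74 with GC correction. Leaving out 1 library in turn gave 7 to 13 lower among the other antiviral genes, -0.0033 to 0.28 for the log2 fold change of IFITM2 (below 0 without WT replicate 2), and bounds of 22.4 to 86.2 for MX2 and 100.3 to 276 for RSAD2. The cause of these shifts was not tested beyond what each setting removes. With 3 libraries per genotype an exact permutation test cannot fall below p = 0.1, and MX1 rests on 2 fragments in knockout and 18 in WT, 15 of them in WT replicate 1.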
